A study of Rattus norvegicus with 2 samples.

Results

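Collagens, integrins and laminins are the matrix proteins of bone and its vessels and the receptors that hold cells to them, and 52 of the 12567 gene names in the femur transcript annotation belonged to these families. They were 28 collagens, 15 integrins (12 alpha and 3 beta subunits) and 9 laminins, chosen by name alone after the endings for predicted or mapped genes had been removed. Together they held 313 of the 43391 transcript models (0.721%), of which 157 belonged to collagens, 89 to integrins and 67 to laminins. No measured value entered the choice.

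Collagen chains are built on a repeat of glycine followed by a pair of other residues (Gly-X-Y), which lets the chains wind into a rope-like helix, and fibrillar collagens pack into the fibrils that carry the mineral of bone. Laminins are cross-shaped trimers of an alpha, a beta and a gamma chain that, with the network-forming type IV collagens, make basement membranes. Integrins are pairs of an alpha and a beta subunit in the cell membrane that bind collagen, laminin or other matrix proteins outside the cell and link them to the actin skeleton inside it.

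The RNA came from femurs of female wild-type Wistar rats that had undergone bilateral ovariectomy (OVX), a model of bone loss after estrogen withdrawal, or a sham operation (SHAM) that spared the ovaries. The labels name 1 OVX and 1 SHAM sample, both at 16 weeks, while the study's methods describe several sequenced rats per group and a shorter feeding period. The weeks of the labels and the feeding period need not count the same time. The labels further mark the OVX sample as old and the SHAM sample as young, so operation and that marking cannot be told apart. Each model is recorded as present in 1 or in both of 2 assemblies, and neither assembly could be assigned to a rat or a group. The files held no count, level or coverage for any sample, so the depth behind a model is unknown, no difference between OVX and SHAM was computed, and all values below describe gene models, without a test.

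Some genes of these families were assembled as 1 whole transcript and others as many fragments. Col1a1 and Col3a1, the alpha1 chains of type I and type III collagen, and Itgb1, the beta1 subunit shared by most matrix-binding integrins, were each a single model that covered every intron of a reference transcript and was the same in both assemblies. Lama2, the alpha2 chain of muscle-type laminin, stood at the other end with 21 short models, none of them in both assemblies. Exon lengths also separated the families: 84.2% of the internal exons of fibrillar collagens were a multiple of 9 bp, the length that codes for 1 Gly-X-Y unit, against 13.9% for integrins and 13.8% for laminins.

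To see how far each family had been reconstructed, models were sorted by their class against the reference annotation: a full reference chain (every intron of a reference transcript), a contained fragment (introns that all lie within a longer reference transcript) or a new junction (at least 1 splice junction that the reference lacks). Among the 313 models, 8 (2.56%) had a full reference chain, 254 (81.2%) were contained fragments and 50 (16.0%) carried a new junction. For the other named genes the same shares were 15.5%, 55.9% and 25.6%. The 176 other genes with a model of 25 or more exons, which are closer to the collagens in exon number, had shares of 8.34%, 43.5% and 45.5%. That set was picked by the exon number of its assembled models, so only genes already assembled into a long model entered it. The genes of these families were not picked in this way, so the set is no matched control. Part of any gap to it, here and below, may come from that choice. Contained fragments thus made up a larger share in these families than in either set.

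**Figure D1:**
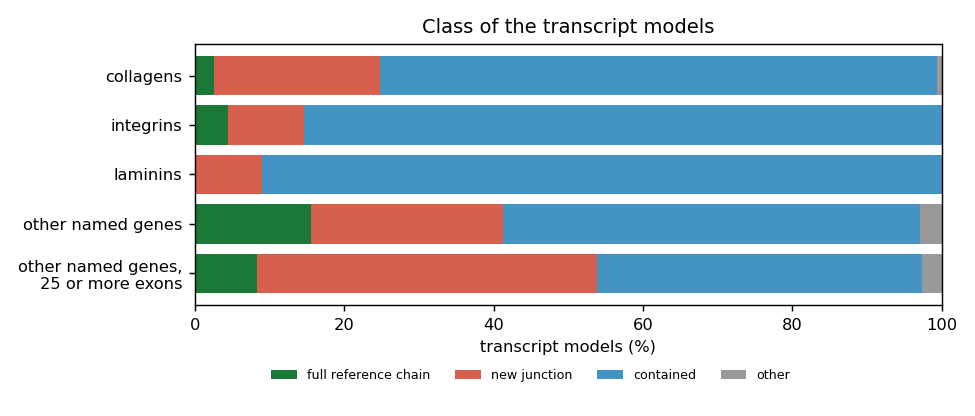
Stacked bars give the percentage of transcript models in each class (x axis, %) for collagens, integrins, laminins, all other named genes and the other named genes with a model of 25 or more exons. Contained fragments fill 74.5% of the collagen bar, 85.4% of the integrin bar and 91.0% of the laminin bar, and the laminin bar has no full reference chain.

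The families differed in these shares. Collagens had 4 full-chain models (2.55%) and 35 models with a new junction (22.3%), and 12 of their models (7.64%) were in both assemblies. Integrins had 4 full-chain models (4.49%) and 2 models in both assemblies (2.25%). Laminins had neither: 61 of 67 models were contained fragments and 6 carried a new junction. In all, 14 models (4.47%) were in both assemblies, against 12.3% for other named genes and 7.65% for those with 25 or more exons, a share close to that of the collagens. Counted by gene, 7 of 52 genes (13.5%) had a full chain, against 38.7% of other named genes and 44.9% of those with 25 or more exons. Since the last set was picked for long models, its 44.9% is no matched value for the 13.5%. A model in both assemblies was found for 12 genes (23.1%), against 30.9% and 38.1%. Yet 45 genes (86.5%) had at least 1 model of their own in each assembly, against 76.5% of other named genes and 98.9% of those with 25 or more exons. The genes were therefore mostly seen in both assemblies, but as different pieces.

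These genes were rich in exons. The median of the largest exon number per gene was 13.5, over a range from 2 to 66, against 5 for other named genes. By family it was 27 for collagens, 11 for integrins and 9 for laminins. A model of 30 or more exons was found for 14 of the 52 genes (26.9%), namely 12 collagens, Itgam and Lamb2, against 0.695% of the other named genes. Models were nevertheless short, with a median of 486 bp against 593 bp (1783 bp in the other genes with 25 or more exons), and the median number of models per gene was 5.5 against 2. Single-exon models were rare, at 2 of 313 against 1150 of 38301 for other named genes, and no gene lacked a model of several exons.

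**Figure D2:**
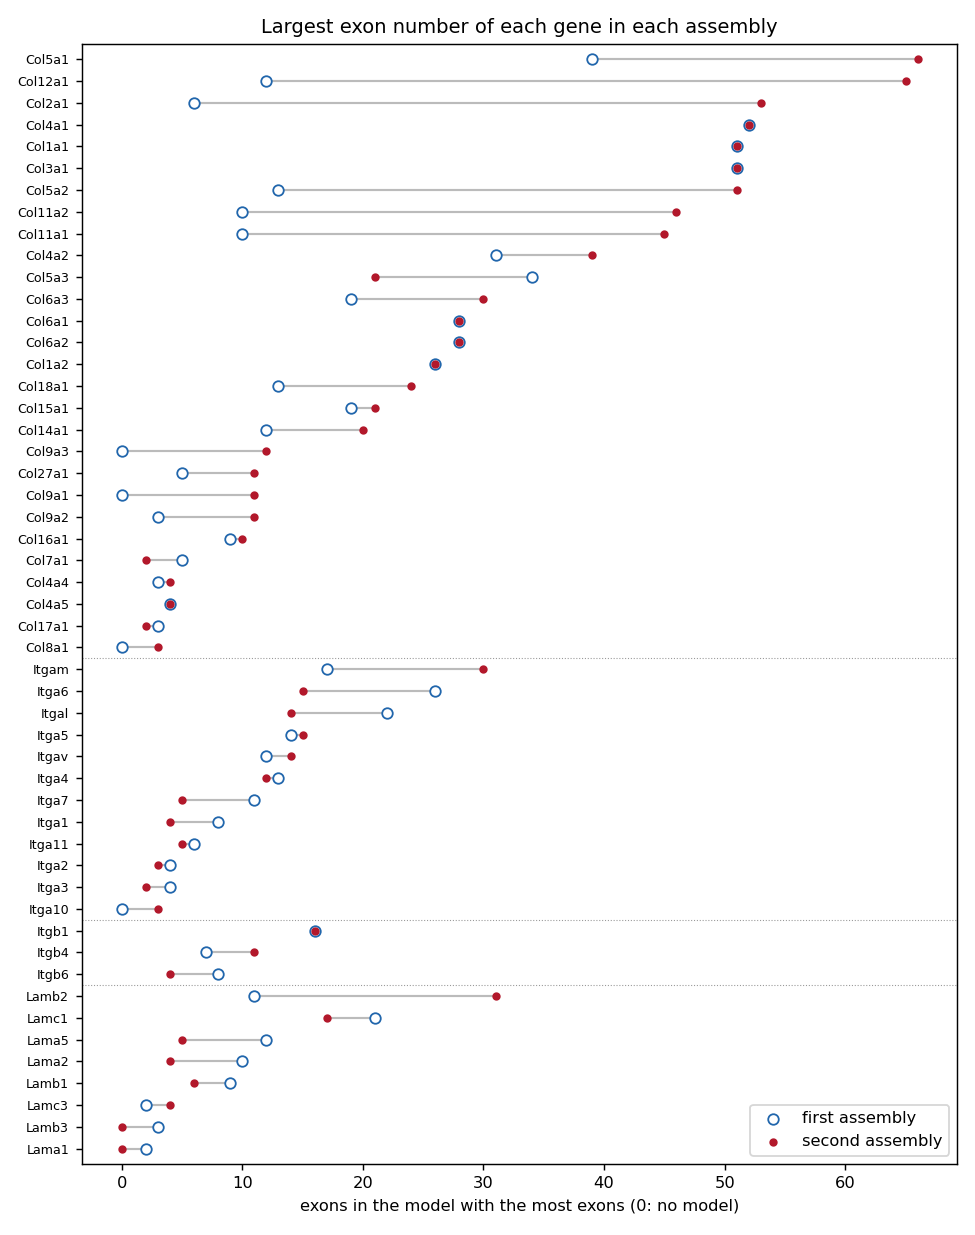
For 51 of the 52 genes (y axis, grouped as collagens, integrin alpha, integrin beta and laminins), points give the number of exons in the model with the most exons (x axis) in the first assembly (open circles) and in the second (filled circles), with 0 where an assembly had no model. Col1a1, Col3a1 and Col4a1 coincide at 51, 51 and 52 exons, while Col12a1, Col2a1 and Col11a1 lie far apart.

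Among the fibrillar collagens, Col1a1 (XLOC_010275, chromosome 10, 78658444 to 78675433, plus strand, build rn4) was represented by its only model, of 51 exons and 5827 bp. Col3a1 (XLOC_009273, chromosome 9, 45061740 to 45098560, plus strand), which forms mixed fibrils with type I collagen in vessel walls and early repair tissue, also had a single model, of 51 exons and 5590 bp. Both models had a full chain in both assemblies. Col5a1, the type V chain that helps to start and size fibrils, had the most exons of all these genes. Its full-chain model of 66 exons and 6174 bp came from the second assembly, and 39 exons (3122 bp) was the most in the first. Only 5 other named genes in the annotation had a model of 66 or more exons, the longest with 187.

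Col1a2, the partner chain of Col1a1 in type I collagen, was not found as a full chain. It was cut at the same place in both assemblies, into a model of 22 exons and 1428 bp and one of 26 exons and 3319 bp, with 963 bp between position 27964394, where the first model ended, and position 27965358 on chromosome 4, where the second began. The pair together held 48 exons. Col6a1, a chain of the beaded type VI filaments around cells, was cut in the same manner, into 28 exons (2093 bp) and 6 exons (2029 bp) with 791 bp between them. Its partner Col6a2 was found whole in both assemblies, with 28 exons and 3627 bp. These breaks are a feature of both assemblies, and their origin was not tested.

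The cartilage fibril genes were long in the second assembly alone. Col2a1, the main collagen of cartilage, had a model of 53 exons and 4801 bp there, in a class for models that retain intron sequence, and at most 6 exons in the first. Col11a1 reached 45 exons (4200 bp) against 10, and Col11a2 reached 46 exons (4322 bp) against 10; both chains lie inside cartilage fibrils. Col9a1 and Col9a3, chains of the type IX collagen on the surface of those fibrils, had models of up to 11 and 12 exons in the second assembly and none in the first. Col9a2, the third chain, had 11 exons against 3. The gap was not limited to cartilage genes, since Col5a2, a type V chain of bone and skin, had 51 exons against 13, and Col12a1, a fibril-associated collagen of bone and tendon, had 65 exons (9419 bp) against 12. Col5a3 went the other way, with 34 exons in the first assembly and 21 in the second.

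Counted over the family, the longest model was longer in the second assembly for 20 of 28 collagens, longer in the first for 2 and equal in 6. The opposite held for the other families. The longest model was longer in the first assembly for 10 of 15 integrins and 7 of 9 laminins, as it was for 46.5% of other named genes (31.1% were longer in the second). Among the integrins this came from the alpha subunits, with 9 of 12. The 3 beta subunits split evenly, with 1 longer in each assembly and 1 equal. Among the other genes with 25 or more exons, 56.8% were longer in the first and 24.4% in the second. This contrast was noticed after the values had been seen, and since neither assembly is tied to a group it says nothing about OVX and SHAM.

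Splice junctions were shared more often than whole models. Of 1031 collagen junctions, 690 (66.9%) were in both assemblies, 59 in the first alone and 282 in the second alone. Integrins shared 194 of 298 (65.1%), and laminins shared 75 of 171 (43.9%), against 53.5% for other named genes. All 3 shares lay below the 77.8% (5753 of 7394) of the other genes with 25 or more exons, a set picked for its long models. For Col12a1, 51 of 65 junctions were in both, although its longest models had 65 and 12 exons. Most of the Col12a1 locus was therefore found in both assemblies, in 1 piece in the second and in fragments in the first. Of the other fibril-associated collagens, Col16a1 had 15 models of at most 10 exons and Col14a1 had 10 of at most 20. Lower exon numbers were found for Col7a1, the anchoring fibril collagen of epithelia (at most 5), Col17a1 of hemidesmosomes (3) and Col8a1, a short-chain collagen with models in the second assembly alone (3).

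**Figure D3:**
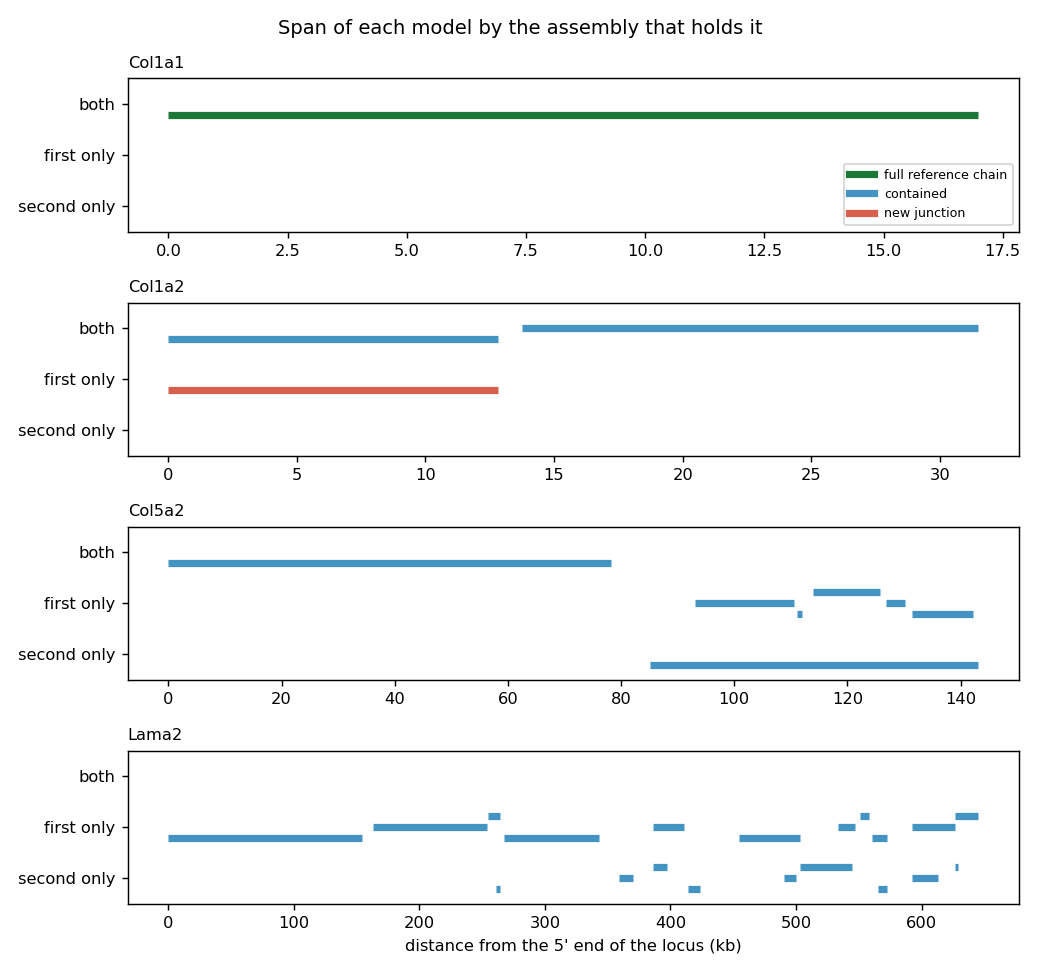
Horizontal bars show the span of each transcript model, by distance from the 5′ end of the locus (x axis, kb), for Col1a1, Col1a2, Col5a2 and Lama2, in rows for models in both assemblies, in the first only and in the second only; colour gives the class. Col1a1 is 1 unbroken bar in both assemblies, Col1a2 breaks once at a shared place, and Lama2 is split into 12 bars in the first assembly and 9 in the second.

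The basement membrane collagens Col4a1 and Col4a2 lay head to head on chromosome 16, with 170 bp between the starts of their models (75981316 on the plus strand and 75981145 on the minus strand). They were the closest pair among the 52 genes. Their protein products are partners in the most widespread type IV network, and they are known to be read from a shared promoter. Col4a1 had a single model of 52 exons and 6320 bp in both assemblies, with a new junction. Col4a2 had up to 39 exons (5497 bp) in the second assembly and 31 in the first, and 44 of its 45 junctions were in both. Like Col1a2 and Col6a1, it was cut at the same place in both assemblies. The models of 39 and 31 exons both ended at position 75891774, and a model of 8 exons in both assemblies lay from position 75892689 on. The tissue-restricted chains were less complete, with at most 4 exons for Col4a4 and for Col4a5. The sequence between the pair is shown because these were the only 2 of the 52 genes with models within 5 kb of each other. It is given from RefSeq on build GRCr8, whose positions cannot be compared with those of rn4, as the window from 250 bases before to 50 bases after each gene's start (chr16:84885347-84885646, plus strand, for Col4a1 and chr16:84885471-84885770, minus strand, for Col4a2). Each is written from 5′ to 3′ on its own strand, and capitals mark the 176 bases that both windows hold, as opposite strands of the same DNA:
Col4a1: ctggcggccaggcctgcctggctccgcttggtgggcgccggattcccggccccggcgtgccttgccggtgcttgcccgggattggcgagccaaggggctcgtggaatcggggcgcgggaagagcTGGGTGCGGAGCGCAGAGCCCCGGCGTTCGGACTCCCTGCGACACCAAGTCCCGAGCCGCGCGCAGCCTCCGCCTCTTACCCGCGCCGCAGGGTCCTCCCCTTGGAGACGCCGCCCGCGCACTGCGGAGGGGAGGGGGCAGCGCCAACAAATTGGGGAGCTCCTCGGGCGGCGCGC
Col4a2: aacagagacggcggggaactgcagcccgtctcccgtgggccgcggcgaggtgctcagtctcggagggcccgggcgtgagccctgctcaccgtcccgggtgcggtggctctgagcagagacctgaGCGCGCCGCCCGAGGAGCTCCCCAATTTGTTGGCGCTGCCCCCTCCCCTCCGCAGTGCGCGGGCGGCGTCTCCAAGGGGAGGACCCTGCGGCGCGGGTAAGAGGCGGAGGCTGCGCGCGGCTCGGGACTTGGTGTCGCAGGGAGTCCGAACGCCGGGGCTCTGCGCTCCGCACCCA
In RefSeq the starts lie 76 bases apart. The shared part covers the bases between the starts and also the first 50 bases of each gene. It held 2 copies of the GC box (GGGCGG, either strand) and 1 CCAAT box (CCAAT, either strand), and neither window held TATAAA. The CCAAT match and 1 of the GC box matches lie after the Col4a1 start. Across 33469 RefSeq promoters of the same length, GGGCGG was found in 33.1%, CCAAT in 37.5% and TATAAA in 14.2%. Of the 39 promoters of these families in that table, 24 (61.5%) held GGGCGG, 10 (25.6%) held CCAAT and 2 (5.13%) held TATAAA. A match describes the letters in the window and is no measure of binding.

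Other pairs lay within 100 kb of each other. Col3a1 and Col5a2 faced each other tail to tail on chromosome 9, 37.4 kb apart, and Col1a1 faced Itga3 on chromosome 10 over 89.5 kb that held 3 other named genes. Itga2 and Itga1 on chromosome 2 (87.0 kb) and Col6a1 and Col6a2 on chromosome 20 (97.2 kb) followed one another on the same strand.

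Exon lengths were compared with the 9 bp that code for 1 Gly-X-Y unit, without reading any sequence. Among 949 distinct internal exons of collagens (the first and last exon of each model left out), 624 (65.8%) were a multiple of 9 bp, and 283 (29.8%) were exactly 54 bp. Among 72900 internal exons of other named genes, 13.2% were a multiple of 9 bp and 0.413% were 54 bp. Integrins had 1 exon of 54 bp among 252, and laminins had 0 among 130. Of the genes with 10 or more internal exons, 17 of 23 collagens had at least 50% of them at a multiple of 9 bp, against 0 of 15 integrins and laminins and 10 of 2522 other genes.

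The share at multiples of 9 bp was highest in the fibrillar collagens, with 425 of 505 internal exons (84.2%). The lengths 45, 54, 99, 108 and 162 bp together made up 79.0% of these 505 exons. In the other classes the share, taken over all internal exons whatever part of the protein they code for, was lower. It was 59.3% for the beaded filament chains of type VI, whose commonest exon was 63 bp (22 exons), 43.3% for basement membrane collagens, 41.0% for fibril-associated collagens and 38.2% for the rest. Col1a1 had 43 of 49 internal exons at a multiple of 9 bp, Col1a2 had 41 of 46, and Col27a1, a fibrillar collagen of developing cartilage, had 18 of 19. By contrast, Col12a1, which consists mostly of fibronectin-type and von Willebrand-type domains, had 13 of 63, and Col4a1 had 20 of 50. The fibril-associated class was mixed. Besides Col12a1, Col14a1 was low with 11 of 41, while Col16a1 had 24 of 36, Col9a1 9 of 13, Col9a2 6 of 10 and Col9a3 8 of 10.

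**Figure D4:**
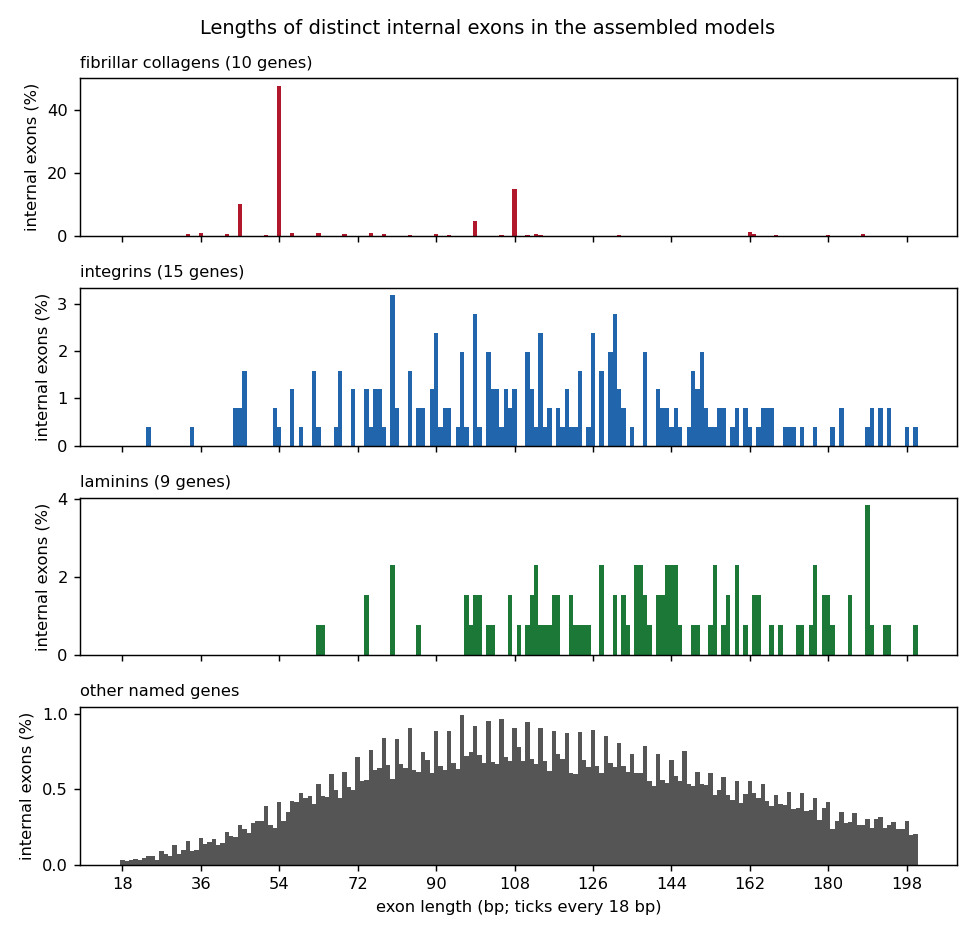
Bars give the percentage of distinct internal exons (y axis, %) at each length (x axis, bp, 1 bp bins up to 200 bp) for the fibrillar collagens, integrins, laminins and other named genes, each on its own y scale. Fibrillar collagens stand in a few narrow bars at 45, 54, 99 and 108 bp, of which 54 bp alone holds 47.7%, while the other groups spread over a broad range.

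In the order of exons, multiples of 9 bp formed a long unbroken stretch in the fibrillar collagens. Whether the stretch equals the coded helix was not tested. In Col1a1, exons 7 to 47 (41 exons, 2988 bp, 332 units of 9 bp) were all multiples of 9 bp. The stretch was also 2988 bp in Col2a1 (exons 8 to 49) and in Col5a2 (exons 6 to 47), with 42 exons each. It was 2997 bp in Col3a1 (exons 6 to 47, 42 exons) and 2979 bp in Col5a1 (exons 15 to 61, 47 exons). These lengths differ by at most 2 units. The stretches of Col11a1 (39 exons), Col11a2 (41) and Col5a3 (32) began at the second exon of their models, which were contained fragments, so they are lower limits. That of Col5a3 also ran up to the next-to-last exon of its model (33 of 34), so its 3′ end is open as well. Outside the fibrillar class, the scanned models had at most 13 such exons in a row, in Col6a2 (720 bp). The stretch of Col4a2 had 7 exons but was longer in bases, at 792 bp. Itga6 had 2 such exons in a row and Itgb1 had 1.

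Stretches were set side by side from their 3′ ends, at the shift of up to 3 exons that gave the most equal lengths. With the 3′ ends aligned and no shift, Col2a1 and Col5a2 had the same length at 42 of 42 exons. Col3a1 equalled each of them at 41 of 42, the exception being exon 6 of Col3a1, of 54 bp, which stood against an exon of 45 bp in Col2a1 (exon 8) and Col5a2 (exon 6). Col1a1 equalled Col2a1 at 30 of 41 positions as counted, which was at a shift of 1 exon and not with the 3′ ends aligned. Once exons 34 and 35 of Col2a1 (54 bp each) were joined to the 108 bp of exon 33 in Col1a1, all 41 were equal with the 3′ ends aligned. A second pattern was shared by Col11a1 and Col11a2, which were equal at 39 of 39 exons, and by Col5a1. As counted, again at a shift of 1 exon, Col5a1 equalled Col11a1 at 29 of 38 positions. Once exons 26 and 27 of Col11a1 (54 bp each) were joined, 38 of 38 were equal with the 3′ ends aligned. The same join in Col11a2 gave 40 of 40. The shorter run of Col5a3 also followed the second pattern, when not aligned at its 3′ end. Its exons 2 to 33 had, in order, the lengths of exons 6 to 37 of Col11a2, at 32 of 32 exons. Across the patterns the match was lower, at 19 of 42 exons for Col2a1 and Col5a1 as counted. It was 23 of 42 with the best single join in Col5a1, at a shifted alignment. The genes of 1 pattern thus included chains of different collagen types, type V having Col5a2 in the first and Col5a1 and Col5a3 in the second.

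**Figure D5:**
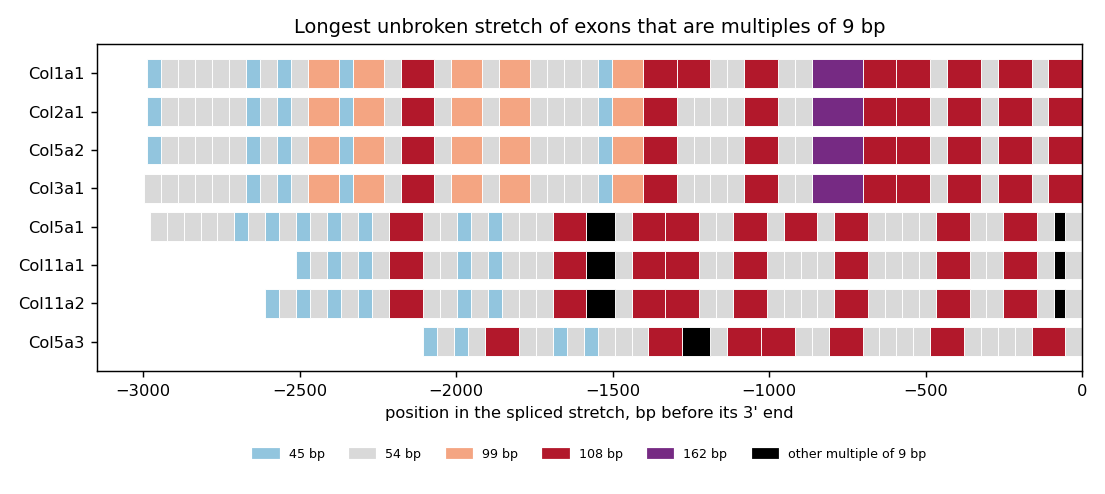
Each row is the longest unbroken run of exons whose lengths are multiples of 9 bp in 1 fibrillar collagen, drawn to scale in spliced bases and aligned at the 3′ end (x axis, bp before the end of the run), with colour giving exon length. Col1a1, Col2a1, Col5a2 and Col3a1 share 1 order and Col5a1, Col11a1 and Col11a2 another, and the single 108 bp block of Col1a1 in place of 54 bp blocks is visible near the middle. Col5a3 has the order of Col11a2 but is drawn shifted, since its model stops earlier at the 3′ end.

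Among the integrins, Itgb1 (XLOC_015544, chromosome 19, 56037588 to 56085257, plus strand) was the gene found whole in both assemblies, with 16 exons and 3282 bp. Itga6, a laminin-binding alpha subunit, had full-chain models of 26 exons (5900 bp) and 25 exons (5770 bp) in the first assembly and fragments of 15 exons (2211 bp) and 14 exons (2081 bp) in the second. In each assembly the longer and the shorter model differed by the same exon of 130 bp (chromosome 3, 56227554 to 56227683), whose length is not a multiple of 3. It lies near the 3′ end of the gene, as the exon that separates the A and B cytoplasmic tails is known to do. Models with and without it were thus found in both assemblies, and both forms in the first matched a reference transcript. Itgam, the alpha subunit of the Mac-1 receptor of myeloid cells, had a full chain of 30 exons and 3500 bp in the second assembly and 17 exons in the first. Itgal, its lymphocyte relative, had up to 22 exons in the first assembly, and a pair of its models in each assembly differed by 3 bp at 1 acceptor site.

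The collagen-binding alpha subunits had short models. Itga1 had 11 models of at most 8 exons, Itga11 had at most 6 exons, Itga2 at most 4 and Itga10 a single model of 3 exons in the second assembly. The fibronectin and vitronectin receptor subunits Itga5 and Itgav reached 15 and 14 exons, and Itga4, a receptor of blood and marrow cells, reached 13. Itga7, the laminin receptor of muscle, reached 11 exons in the first assembly and 5 in the second. Itga3, another laminin receptor, had at most 4. Of the other beta subunits, Itgb4 of hemidesmosomes had 11 models of at most 11 exons, and Itgb6 of epithelia had 3 of at most 8.

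Among the laminins, Lama2 (chromosome 1, 16078744 to 16723975, plus strand) was spread over 645232 bp, with 12 models in the first assembly and 9 in the second. The longest had 10 exons and 1350 bp, and 11 of 45 junctions (24.4%) were in both assemblies. Lama5, a chain of vessel and epithelial laminins, had 16 models of at most 12 exons, and Lamb1 had 14 of at most 9. The most complete were Lamb2, with a model of 31 exons and 5166 bp in the second assembly against 11 exons in the first, and Lamc1, the most widely used gamma chain, with 21 exons and 5463 bp in the first against 17 in the second. Lama1 and Lamb3, found mainly in epithelial membranes, had 1 model each, of 2 and 3 exons, in the first assembly and none in the second. Lamc3 had at most 4 exons.

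Alternative splicing within a locus was seen in few of these genes. Besides Itga6, a skipped exon was found in Col6a3, where an exon of 600 bp (chromosome 9, 88951824 to 88952423, minus strand) was present in a model of 30 exons and absent from one of 29 exons, both in the second assembly, and was also absent from a model of the first. Skipped exons were thus found in 2 of 52 genes (3.85%), against 5.02% of other named genes. The share was 27.8% in the other genes with 25 or more exons, a set picked for its long models. Alternative sites at most 30 bp apart were found in Itgal, in Col16a1 (18 bp, acceptor) and in Lamb2 (6 bp, donor), which is 5.77% of the genes against 4.84% of all named genes. All 3 differences were multiples of 3.

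Of the 81 current rat symbols that fit the same pattern, 52 had a model under that name and 29 did not. The 16 collagens without one were Col4a3, Col4a6, Col6a4, Col6a5, Col6a6, Col8a2, Col10a1, Col13a1, Col19a1, Col20a1, Col22a1, Col23a1, Col24a1, Col25a1, Col26a1 and Col28a1. The 11 integrins were Itga2b, Itga8, Itga9, Itgad, Itgae, Itgax, Itgb2, Itgb3, Itgb5, Itgb7 and Itgb8, and the 2 laminins were Lama3 and Lama4. A missing name need not mean that a gene had no model. Lama4, the laminin alpha chain of vessels, was present under an older name with 14 models, 4 of them full chains, and Itga8 under another with 5 models of at most 3 exons. With Lama4 counted, the laminins would not be without a full chain.

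As a check of the tissue, the osteoblast genes Col1a1 and Col1a2 had their longest models in both assemblies, as had Spp1 and Ibsp, which code for bone matrix proteins that bind integrins. The cartilage markers Col2a1, Col9a1 and Col11a2 had models and Col10a1 had none under that name. The leukocyte subunits Itgal and Itgam had models, whereas Itgb2, with which both pair, did not under that name. The leukocyte subunits Itgad, Itgae, Itgax and Itgb7 had none under their names either, nor did the platelet and osteoclast subunits Itga2b and Itgb3. The muscle markers Itga7 and Lama2 had models.

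Genes that work on or with these proteins were counted from a list of 61. Of these, 33 had a model, and the share of all current symbols with a model was not computed to set beside this. A model in both assemblies was found for 18 of the 33 (54.5%), against 30.9% of other named genes and 23.1% of the 52. A full chain was found for 14 (42.4%), a share near the 38.7% of other named genes and above the 13.5% of the 52. In the collagen modification and processing group, 16 of 30 had a model and 6 had a full chain, among them Serpinh1, the collagen chaperone (5 exons, 2133 bp), P4hb, a subunit of prolyl hydroxylase (11 exons, 2926 bp), and Sparc, a collagen-binding protein of bone (10 exons, 2097 bp). In the group of integrin ligands and other collagen receptors, 5 of 7 had a model and 3 a full chain, including fibronectin (Fn1, 46 exons, 8336 bp). In the adhesion complex, 8 of 17 had a model and 4 a full chain, including vinculin (Vcl, 21 exons, 5270 bp), and of the basement membrane partners 4 of 7 had a model and 1 a full chain. Like the 52 genes, the listed ones were matched by name, so a gene kept under an older name counts as missing.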

How the data were processed

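RNA was sequenced by the authors from total femur RNA of OVX and SHAM rats. The submitters' processing notes name FastQC, HISAT2, StringTie and featureCounts and the build rn4; versions and settings are not given in the sources used here. The deposited annotation gives positions and attributes for each transcript model, and a second file lists new genes by position. The models carry the attributes that gffcompare writes (class, number of assemblies), and no count or level per sample. Depth is therefore unknown, and a comparison of OVX with SHAM was neither planned nor made. The labels also give a single sample per group, which leaves no replicate.

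Genes were matched by name, without regard to case. A model's assembly was read from the numbering, which on each of the 21 sequences runs through both strands once and then again; none of the 4896 models in both assemblies stood in the second run. Sequences were assigned to chromosomes by their genes. Exons were counted once by position, and the first and last exon of each model were left out of the length counts. Exons were taken as a skipped exon where another model joined the flanking exons directly. Symbols and gene order came from the GRCr8 table without its coordinates, and promoters from RefSeq (GRCr8). Of the 52 genes, 39 had a promoter entry. No protein sequences were used. The values of 1 of the 52 genes are not reported here by name, though its models stay in the counts.

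The 52 genes, the classes, the list of 61 related genes and the comparisons were chosen with earlier results of these data known. Genes named with values were those with 30 or more exons in a model, those with a full chain in both assemblies, the 5 with the most models per family, those with models of 1 assembly only and neighbouring pairs. The other genes named, the splicing forms, the exon order pairs and the split loci were chosen after their values had been seen. The scripts were tested on a simulated annotation of 200 genes. Python 3.11.15, numpy 2.4.6, scipy 1.17.1 and matplotlib 3.10.9 were used.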

Additional observations from a re-analysis of the deposited data

Results flagged for a closer look

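The list of new genes was not used in the report. It carries no value for the SHAM or the OVX sample, so it was set against a count of 0, which any entry exceeds. It holds 3 new genes within 5 kb of a gene of these families. XLOC_000665 (308 bp) lay 2434 bp from Itgam on the same strand, XLOC_010451 (517 bp) lay 1782 bp from Itgb4 on the same strand, and XLOC_008496 (441 bp) lay 1375 bp from Col12a1 on the opposite strand.

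A further 4 models without a gene name lay wholly within introns of these genes and likewise entered no comparison: 2 in Itga4, 1 in Col6a3 and 1 in Itgam. They were 239 to 391 bp long, 3 of the 4 were on the strand opposite to the host gene, 1 had a single exon, and none was in both assemblies.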

How the results depend on the processing

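All values are shares and counts of models, so an alternative changes which names, models or exons are counted. With exact names, 31 genes were found in place of 52; with older symbols, 54. The share of genes with a model in both assemblies (23.1%) became 7.69% when full-chain models alone were counted and 86.5% when the model need not be the same. The share of models with a full chain (2.56%) became 5.26% among models of 500 bp or more and 13.6% without contained fragments, and the share of models in both assemblies (4.47%) became 10.2% without contained fragments. The median exon number (13.5) became 29.5 with the exons of all models merged. The collagen share at multiples of 9 bp (65.8%) became 81.9% in full-chain models, 73.3% in models of both assemblies and, in an alternative added after the data had been seen, 70.4% without models with a new junction. It was 65.5% in the first and 66.0% in the second assembly, also added later, and 63.5% with repeats counted. The share of fibrillar exons of 54 bp (47.7%) was 45.7% and 47.2% in the first 2 of these settings. At a gap of 5 kb, 1 neighbouring pair was left of 6. Counting multi-exon models alone gave 23.1%, 13.5% and 4.50% for the 3 shares it was applied to. No paired analysis was possible because neither group had a value of its own to pair; for the same reason no replicate could be left out and the OVX and SHAM comparison had no alternative. Depth is unknown, so a missing or broken model cannot be read as low expression.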

Other observations

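A few loci that the name pattern did not take in had exon lengths like those of collagens; they were picked out after their values had been seen, and no gene name is given to them here. Among the 10 other genes with at least 50% of 10 or more internal exons at a multiple of 9 bp, the locus named rCG_26072 (XLOC_009030, chromosome 8, 105850758 to 105871407, minus strand) had 9 of 10. It lies between Pik3r4 and Tlr9, where the current gene order places Col6a4, Col6a5 and Col6a6. The locus LOC499431 (XLOC_016222, chromosome 20, 31214313 to 31347664, minus strand) had 15 of 20 and lies between Tysnd1 and Hk1, where the current order places Col13a1. The locus rCG_59514 (XLOC_007971, chromosome 7, 100151588 to 100362816, minus strand) had 12 of 17, with 7 exons of 54 bp, and lies between Khdrbs3 and Chrac1, where the current order places Col22a1. None of the 3 had a model in both assemblies or a full chain, and their largest exon numbers were 12, 8 and 5.

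Integrin symbols without a model also had unassigned loci between the genes that flank them in the current order. The interval from Pttg1ip to Adarb1, which holds Itgb2, contained rCG_60535 and RGD1311257, and the interval from Cdc27 to Mettl2, which holds Itgb3, contained rCG_32620 and rCG_35442. The interval from Itgam to Cox6a2, which holds Itgad and Itgax, contained rCG_39970 and rCG_40584. These are positions only, and whether any of these loci is the integrin gene was not tested.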
